A study of Mus musculus with 26 samples.

Results

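Nuclei sorted from whole brain of a mouse line that tags oligodendrocytes were compared with nuclei of the same line taken before the sort. The comparison used 8 of the 26 libraries of the study, 4 of sorted and 4 of presort nuclei, chosen by the line and the stage named in their labels. All 8 came from mice with the transgene Tg(Cnp-EGfp/Rpl10a)JD368Htz on the background B6.FVB, at an age of 6 to 12 weeks, with 2 females and 2 males in each group and no drug or surgery named. The transgene of this line puts a fusion of enhanced green fluorescent protein and Rpl10a, a protein of the large ribosomal subunit, under the control of Cnp, a gene of myelinating glia, so sorted and presort nuclei carried the same allele. Presort libraries are labelled as mixed cells and served as the low-depth background. How the nuclei were sorted is not given in the sources used here. The same 2 stages were sampled in an astrocyte line with Tg(Aldh1L1-EGfp/Rpl10a)JD130Htz and a neuron line with Tg(Snap25-EGfp/Rpl10a)JD362Htz, both also on B6.FVB, with 8 libraries each, and these entered only the tests of whether the sort acted differently between lines.

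Oligodendrocytes wrap axons in myelin, a stack of membrane that is rich in galactolipids and cholesterol and is held together by a small set of abundant proteins such as myelin basic protein and claudin 11. They arise from dividing precursors that carry the receptor Pdgfra and a coat of chondroitin sulfate proteoglycans, pass through a short newly formed stage, and then switch on the myelin genes under Sox10, Olig1, Olig2 and Myrf. Nuclear RNA holds unspliced and newly made transcripts as well as RNAs that never leave the nucleus, so a level measured here is that of the nucleus and not of the whole cell.

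Total counts were 219714 to 313720 in the presort libraries and 1602594 to 2932766 in the sorted ones, so depth differed between the groups. A floor of 3 counts corresponded to 9.56 to 13.7 CPM (counts scaled to the library total) in presort and to 1.02 to 1.87 CPM in sorted libraries. Fold changes also used TMM factors, which rescale each library total and which CPM leave out. In the fit of these 8 libraries the factors were 1.18 to 1.29 in presort. They were 0.928 to 0.992 in sorted replicates 10, 12 and 34 and 0.508 in sorted replicate 36. Relative to CPM, the tested scale therefore lowers presort and raises sorted levels, and groups apart in CPM may overlap there. Sorted replicate 36, from a female, stood apart before any gene was tested. It had 7674 genes with a count, against 16223 to 16575 in sorted replicates 10, 12 and 34, and 5710 against 12053 to 12328 once all libraries were brought to the same total of 219714 counts. It listed 0 counts for 1734 of 4872 genes (35.6%) that had between 10 and 50 CPM in each of the other sorted libraries at their lowest, for 211 of 2112 (9.99%) between 50 and 200 CPM, and for 0 of 61 genes of 1000 CPM or more. The correlation of log2(CPM + 1) across genes, a description in which genes are not independent, was 0.604 to 0.611 between replicate 36 and the other sorted libraries and 0.864 to 0.940 among those. The share of counts on mitochondrially encoded genes was 0.339% in sorted replicate 34 and 0.0382% to 0.0585% in the others, against 0.108% to 0.380% in presort. The count of each gene list below is therefore also given without replicate 36, from the fit in which the filter on low counts was applied afresh to the 7 libraries left. Genes named only for a call in that fit were named after their values were seen. In these mixtures, fewer cells of a type and less RNA per cell cannot be told apart.

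The transgene and its driver were examined first. GFP had 19, 25, 15 and 17 counts in presort replicates 9, 11, 33 and 35, which is 60.6, 96.2, 57.5 and 77.4 CPM. It had 155, 79, 136 and 0 counts in sorted replicates 10, 12, 34 and 36, which is 52.9, 37.7, 50.7 and 0 CPM. In CPM all sorted libraries therefore lay below all presort libraries, and the 0 in replicate 36 allows up to 1.87 CPM. The TMM factors used in the test bring the groups closer together than these CPM. The log2 fold change of GFP was -0.71 ± 0.90 (SE) in the 4 against 4 comparison and did not pass (edgeR quasi-likelihood test, Benjamini-Hochberg adjusted p = 0.725), and it was -0.29 ± 0.33 (adjusted p = 0.566) without replicate 36. In the astrocyte line GFP ranged from 77.3 to 139 CPM in presort and from 327 to 847 CPM in sorted nuclei, and in the neuron line from 147 to 276 and from 354 to 579 CPM. The test of the difference in sort effect gave -3.14 ± 0.77 (adjusted p = 0.00484) against the astrocyte line and -1.83 ± 0.75 (adjusted p = 0.101) against the neuron line. Rpl10a, whose reads cannot be separated from those of the fusion in a count per gene, was at 54.2, 88.5, 49.8 and 50.1 CPM in presort and 38.2, 36.2, 38.7 and 0 CPM in sorted nuclei (log2 fold change -0.75 ± 0.89, adjusted p = 0.7). In CPM GFP was therefore higher in every sorted than in every presort library of both other lines. In the oligodendrocyte line it was lower in every sorted library in CPM, a scale without the TMM factors, and the change did not pass. Of all genes tested in this line, 19.7% were likewise lower in CPM in every sorted than in every presort library.

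Cnp, which encodes a phosphodiesterase of the myelin cytoplasm, was at 255, 285, 234 and 232 CPM in presort and at 2144, 1856, 1482 and 642 CPM in sorted replicates 10, 12, 34 and 36. Every sorted library lay above every presort library, with replicate 36 the lowest of the 4. Cnp rose by 3.06 ± 0.37 on the log2 scale (adjusted p = 0.00136), and by 3.21 ± 0.28 without replicate 36. In presort nuclei of the astrocyte and neuron lines Cnp was lower than in presort nuclei here, at 71.3 to 152 and 102 to 128 CPM. Whether reads of transgene parts taken from the Cnp locus count toward Cnp was not tested. The drivers of the other lines did not pass in the 8 libraries: Snap25, a synaptic vesicle fusion protein of neurons, changed by -1.19 ± 0.51 (adjusted p = 0.182) and Aldh1l1, a folate enzyme of astrocytes, by -0.78 ± 0.79 (adjusted p = 0.644). Without replicate 36 on the same genes Aldh1l1 fell by 1.71 ± 0.49 (adjusted p = 0.0188), while Snap25, at -1.05 ± 0.43 (adjusted p = 0.0933), again did not pass.

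Over all 9520 genes tested, 487 were higher (5.12%) and 308 were lower (3.24%) in sorted nuclei, 8.35% in all, and the median log2 fold change was -0.07. Without replicate 36 the counts on the same genes were 1151 higher (12.1%) and 1221 lower (12.8%), and all 487 and all 308 kept their call. With the filter applied afresh to those 7 libraries, 6174 genes were tested, 1031 were higher (16.7%) and 1038 lower (16.8%). List counts without replicate 36 below are to be read against these larger shares. The balance of directions depended on the scaling: 61.3% of the calls were higher with TMM factors, 51.4% with RLE size factors (440 higher, 416 lower) and 34.5% in DESeq2 (593 higher, 1128 lower), with all-gene medians of -0.19 and -0.57 in the latter pair. The medians of all gene lists named below kept their sign under both scalings.

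**Figure D1:**
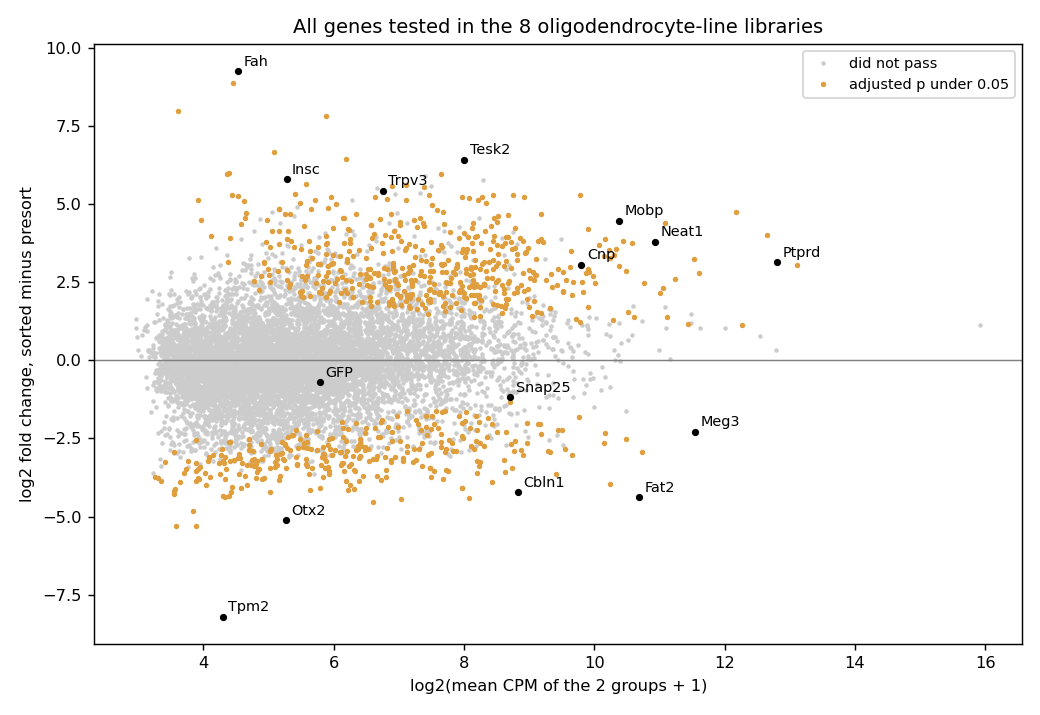
Log2 fold change of sorted minus presort nuclei (vertical axis) against the log2 of the mean CPM of both groups plus 1 (horizontal axis) for the 9520 genes tested, with the 795 that passed in orange and some named genes in black. Ptprd and Mobp sit at high levels on the rising side, Fat2 and Meg3 on the falling side and GFP near 0, and the fitted values of Fah and Tpm2, which have 0 counts in 1 group, depend on the prior count.

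Structural proteins of myelin gave the highest median of all gene lists. Of 17 genes on this list, all 17 were tested, 14 rose and none fell, and the list median was 3.67 against -0.07 for all genes tested. Without replicate 36, 16 were tested and all 16 rose, with a median of 3.62. Mobp, a basic protein of the myelin membrane, was at 163, 219, 134 and 118 CPM in presort and 2868, 4445, 1403 and 1277 CPM in sorted nuclei, with both males above both females in the sorted group. It rose by 4.47 ± 0.48 (adjusted p = 0.0013), the largest change on the list.

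Tspan2, a tetraspanin of the myelin membrane, had the smallest adjusted p on the oligodendrocyte lists, at 0.000977. Its levels were 98.8, 123, 126 and 105 CPM in presort and 1085, 1024, 1347 and 814 CPM in sorted nuclei, both groups being tight and far apart (log2 fold change 3.78 ± 0.37). Cldn11, the claudin that seals the myelin lamellae, rose from 71.7 ± 16.9 CPM (SD, n = 4) to 604 ± 219 CPM (n = 4), by 3.56 ± 0.40. Mag, an adhesion protein that faces the axon, rose from 81.2 ± 36.1 to 843 ± 186 CPM. Opalin, a transmembrane protein found in oligodendrocytes, rose from 20.2 ± 8.87 to 287 ± 109 CPM. Mbp, myelin basic protein, was at 17877, 20661, 8842 and 12288 CPM in sorted nuclei against 2247 to 3052 CPM in presort, and rose by 3.05 ± 0.38.

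Cd9 and Omg were among the 3 members that did not pass. Gjb1, the connexin 32 protein, passed at 3.23 ± 0.82 although replicate 36, at 10.6 CPM, lay inside the presort range of 3.83 to 31.9 CPM. The summed level of the 17 genes was 4173 to 5600 CPM in presort and 31684 to 41151 CPM in sorted nuclei.

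**Figure D2:**
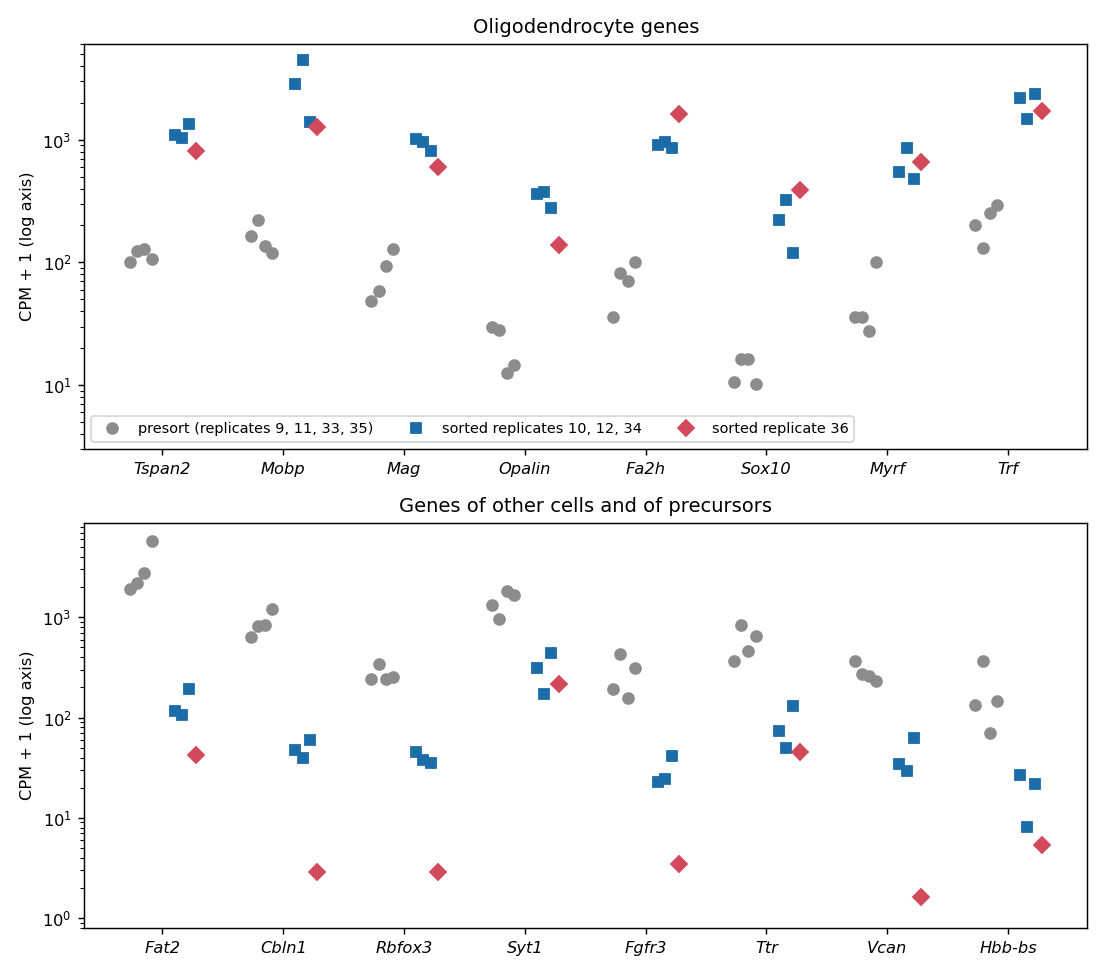
CPM + 1 on a log axis for 8 oligodendrocyte genes (upper panel) and 8 genes of other cells and of precursors (lower panel), 1 point per library: grey circles for presort replicates, blue squares for sorted replicates 10, 12 and 34 and a red diamond for sorted replicate 36. All sorted points lie above all presort points in the upper panel and below them in the lower one, and replicate 36 is far below the other sorted libraries for Cbln1, Rbfox3, Fgfr3 and Vcan.

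Because these genes rose together, the 250 bases before the start of transcription are shown for the driver and for the 3 structural members with the smallest adjusted p that have an entry in the RefSeq promoter table (GRCm38.p6). Capitals mark ACAATG or ACAAAG on either strand, letters bound by SOX-type factors, the latter also being the core of the motif of TCF and LEF factors. The windows run 5′ to 3′ on the plus strand, which is the strand of all 4 genes: chr11:100574689-100574938 for Cnp, chr3:102734520-102734769 for Tspan2, chr9:120149492-120149741 for Mobp and chr3:31149670-31149919 for Cldn11.
Cnp: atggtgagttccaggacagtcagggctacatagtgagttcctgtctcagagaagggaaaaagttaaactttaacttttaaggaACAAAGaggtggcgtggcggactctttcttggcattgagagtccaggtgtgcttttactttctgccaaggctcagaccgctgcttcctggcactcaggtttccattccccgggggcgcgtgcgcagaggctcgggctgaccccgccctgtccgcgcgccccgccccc
Tspan2: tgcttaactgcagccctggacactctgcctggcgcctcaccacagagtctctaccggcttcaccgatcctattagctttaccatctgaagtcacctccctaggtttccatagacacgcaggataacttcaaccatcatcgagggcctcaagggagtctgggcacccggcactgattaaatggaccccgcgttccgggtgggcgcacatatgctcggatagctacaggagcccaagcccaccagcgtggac
Mobp: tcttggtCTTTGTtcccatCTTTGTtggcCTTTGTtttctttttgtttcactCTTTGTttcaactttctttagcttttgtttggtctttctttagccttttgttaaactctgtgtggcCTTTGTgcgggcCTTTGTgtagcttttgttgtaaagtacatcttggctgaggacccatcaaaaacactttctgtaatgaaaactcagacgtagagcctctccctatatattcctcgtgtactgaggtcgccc
Cldn11: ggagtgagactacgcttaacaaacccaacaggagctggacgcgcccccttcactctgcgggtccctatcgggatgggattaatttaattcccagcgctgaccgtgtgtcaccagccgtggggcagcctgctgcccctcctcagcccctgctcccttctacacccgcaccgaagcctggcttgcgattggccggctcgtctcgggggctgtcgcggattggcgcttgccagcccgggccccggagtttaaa
The Cnp window held 1 match and the Mobp window held 6, all 6 being ACAAAG on the minus strand, while the Tspan2 and Cldn11 windows held 0. Of 13 structural members with a window, 6 had either motif (46.2%), as did 1 of 12 lipid genes (8.33%) and 3 of 9 transcription factors (33.3%), against 8292 of all 32851 windows (25.2%). These are letter matches only.

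Enzymes that make myelin lipids were examined next. Of 14 genes listed, 12 were tested, 8 rose and none fell, with a median of 3.08 (10 of 12 and 3.12 without replicate 36). Fa2h, which hydroxylates the fatty acid of galactosylceramide, was at 35.1, 80.8, 68.9 and 100 CPM in presort and 899, 955, 856 and 1630 CPM in sorted nuclei (log2 fold change 4.67 ± 0.60, adjusted p = 0.00166). Ugt8a, the galactosyltransferase that makes that lipid, rose from 40.6 ± 27.2 to 470 ± 224 CPM (4.08 ± 0.58, adjusted p = 0.00218). Aspa, which releases acetate from N-acetylaspartate for lipid synthesis, rose from 33.2 ± 20.6 to 526 ± 241 CPM (4.40 ± 0.58, adjusted p = 0.0017). For none of these did a sorted library fall inside the presort range. Elovl1, an elongase of very long fatty acids, was carried partly by replicate 36: its sorted values were 281, 310, 273 and 1572 CPM, and the change of 5.02 ± 0.92 became 3.33 ± 0.34 without it. Cholesterol is the other main lipid of myelin, and 0 of 17 tested enzymes of its synthesis passed in the 8 libraries, with a median of 0.61. Without replicate 36, 7 of 15 rose, among them Hmgcs1, the HMG-CoA synthase of the pathway, at 1.62 ± 0.37 (adjusted p = 0.00345) with sorted values of 89.7, 75.3 and 65.2 CPM against 18.2 to 41.4 CPM in presort. Replicate 36 had 10.6 CPM of Hmgcs1 and 0 counts for 8 of the 20 cholesterol genes. In the fit of 24 nuclear libraries described below, 7 of these 20 genes rose in the astrocyte line as well (median 1.38). None had a sort effect that differed from the astrocyte line (median difference -0.59), and 4 had a higher one than in the neuron line.

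Of 14 transcription factors of the lineage, 12 were tested, 8 rose and none fell, with a median of 2.79, and without replicate 36, 9 of 10 rose (median 2.74). Sox10, which switches on myelin genes, was at 9.56, 15.4, 15.3 and 9.10 CPM in presort, near the floor of those libraries, and at 222, 322, 119 and 386 CPM in sorted nuclei. It rose by 5.13 ± 0.69 (adjusted p = 0.00171), the largest change on its list, and by 4.52 ± 0.47 without replicate 36. Myrf, the membrane-bound factor of myelinating cells, rose from 49.2 ± 34.2 to 630 ± 166 CPM (4.30 ± 0.59, adjusted p = 0.00189). Zfp536, a zinc finger gene of the lineage, rose from 97.5 ± 20.2 to 758 ± 252 CPM (3.55 ± 0.46), and Olig1 from 33.3 ± 10.1 to 239 ± 56.2 CPM (3.52 ± 0.56). St18, a further zinc finger gene, changed least among the 8 that passed, at 189 to 383 CPM in presort and 688 to 824 CPM in sorted nuclei (1.88 ± 0.40, adjusted p = 0.0155). Olig2 did not pass, at 23.0 to 72.8 CPM in presort and 126, 128, 100 and 0 CPM in sorted nuclei (1.52 ± 1.04, adjusted p = 0.436), and without replicate 36 it rose by 1.99 ± 0.39 (adjusted p = 0.00133). Sp7 was too low to be tested and is named here after its values were seen. It had 0 counts in all presort libraries and 6.24 to 21.5 CPM in sorted ones, which is at least 5.03-fold higher against a floor of 3 counts over the presort group.

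Genes of the node of Ranvier, the paranode and cell adhesion gave 9 rises and no falls among 14 tested (median 2.53), and 12 of 12 without replicate 36. Hapln2, a link protein of the nodal matrix, was at 6.38, 7.70, 30.6 and 22.8 CPM in presort and 275, 279, 203 and 207 CPM in sorted nuclei (4.42 ± 0.62, adjusted p = 0.0019). The groups were far apart and replicate 36 lay within the other sorted libraries. Adamts4, a protease of the matrix, rose from 104 ± 19.1 to 617 ± 209 CPM (3.03 ± 0.38), and Plxnb3, a semaphorin receptor, from 22.6 ± 15.7 to 311 ± 143 CPM (4.29 ± 0.66). Nfasc, a neurofascin made by both neurons and glia, was at 698 to 1183 CPM in presort and 3379, 5238, 2900 and 1073 CPM in sorted nuclei. It rose by 2.16 ± 0.40 (adjusted p = 0.00838), with replicate 36 inside the presort range. Cntn2, an adhesion protein of the juxtaparanode, rose by 2.56 ± 0.42, and Lpar1, a receptor for lysophosphatidic acid, by 3.17 ± 0.52.

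Cytoskeletal and trafficking genes gave 16 rises and no falls among 19 tested (median 2.71), and 19 of 19 without replicate 36. Trf, the iron carrier transferrin that oligodendrocytes make, was at 201, 131, 253 and 291 CPM in presort and 2175, 1470, 2342 and 1718 CPM in sorted nuclei (3.70 ± 0.43, adjusted p = 0.00136). Anln, an actin and septin binding protein, rose from 27.7 ± 10.5 to 256 ± 58.8 CPM (3.72 ± 0.48), and Map7, a microtubule binding protein, from 66.3 ± 29.5 to 496 ± 119 CPM (3.50 ± 0.51). Arhgef10, a guanine nucleotide exchange factor, was at 843, 1095, 495 and 160 CPM in sorted nuclei, so replicate 36 lay nearest to the presort range of 47.8 to 109 CPM. Bcas1, a marker of myelinating cells, showed the opposite, with 2215 CPM in replicate 36 against 578 to 699 CPM in the other sorted libraries. Its change of 3.87 ± 0.73 became 2.65 ± 0.31 without that library.

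Of 14 tested channels and transporters of oligodendrocytes, 7 rose and 1 fell (median 2.36), and without replicate 36, 10 of 12 rose and 1 fell (2.01). Ano4, of the anoctamin family, was at 79.7, 42.3, 53.6 and 22.8 CPM in presort and 566, 660, 459 and 421 CPM in sorted nuclei (3.95 ± 0.50, adjusted p = 0.00159). Kcnk13, a potassium leak channel, had 6 counts over the presort group and 87.4 to 131 CPM in sorted nuclei (4.88 ± 0.85, adjusted p = 0.0063). Slc24a2, a sodium, calcium and potassium exchanger, rose from 962 ± 301 to 3306 ± 561 CPM (2.32 ± 0.36). The member that fell was Trpm3, a cation channel also transcribed in choroid plexus and neurons, at 312 to 554 CPM in presort and 61.8 to 91.5 CPM in sorted nuclei (-1.95 ± 0.40, adjusted p = 0.0145).

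Of 11 tested genes that mark subtypes of mature oligodendrocytes, 4 rose and none fell (median 1.5). Without replicate 36, 8 of 10 rose (median 1.63) and 1 fell, Egr1, an early response gene, by 1.43. Grm3, a metabotropic glutamate receptor, was at 131 to 230 CPM in presort and 314 to 563 CPM in sorted nuclei (1.94 ± 0.39, adjusted p = 0.0127). Apod, a lipocalin, was at 249 to 510 CPM in presort and 638 to 1412 CPM in sorted nuclei (2.18 ± 0.48, adjusted p = 0.0192). Il33, a nuclear cytokine, was at 0 to 53.6 CPM in presort and 125, 150, 351 and 1277 CPM in sorted nuclei, with both males below both females in the sorted group. It rose by 5.23 ± 1.23 (adjusted p = 0.0245), and by 3.36 ± 0.61 without replicate 36. Klk6, a secreted protease, was at 88.3, 66.3, 83.8 and 0 CPM in sorted nuclei and did not pass (adjusted p = 0.116), and without replicate 36 it rose by 3.73 ± 0.50.

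**Figure D3:**
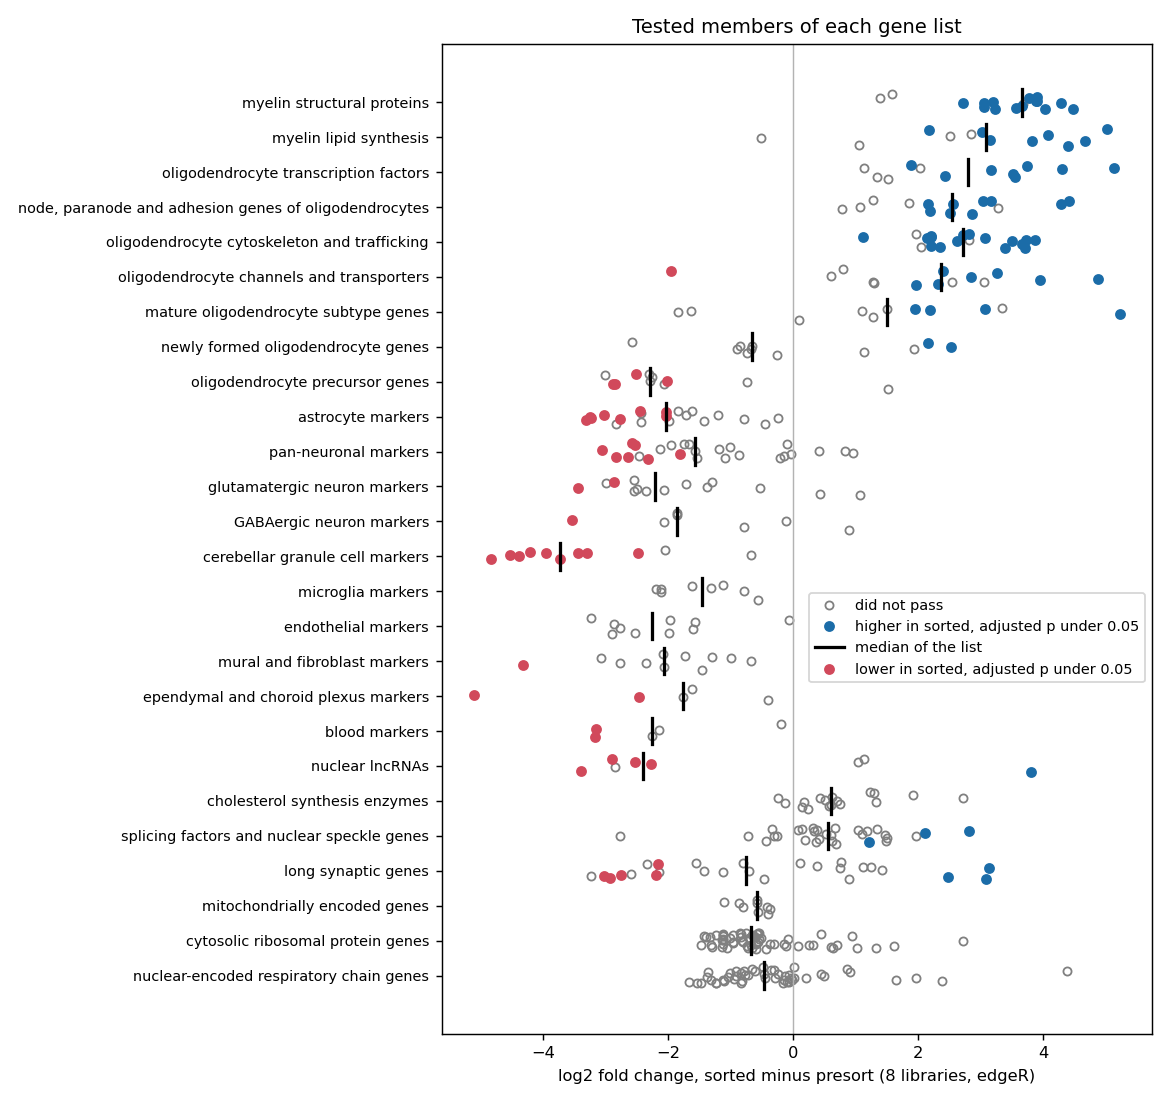
Log2 fold change of sorted minus presort nuclei for each tested member of 26 gene lists, 1 point per gene, with blue for higher, red for lower and open grey for genes that did not pass, and a bar at the median of each list. The medians of the first 7 lists lie between 1.5 and 3.67, those of precursor, astrocyte, neuronal, granule cell, microglial and vascular lists lie between -3.74 and -1.47, and ribosomal and respiratory lists lie close to 0 with no gene past the test in the 8 libraries.

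Genes of earlier stages of the lineage were examined next. Of 11 tested genes of newly formed oligodendrocytes, 2 rose and none fell, with a median of -0.65, where 5.12% of all genes tested rose. Without replicate 36, 2 of 9 rose and 1 fell, where 16.7% of all genes tested rose and 16.8% fell. The median was -0.27, and the fall was that of Cemip2, a hyaluronidase, by 2.18. The 2 that rose were Enpp6, a choline phosphodiesterase, and Nfasc, which is also on the node list. Enpp6 was at 15.9, 38.5, 15.3 and 18.2 CPM in presort and 142, 120, 114 and 13.1 CPM in sorted nuclei, so that replicate 36 lay below the presort range and the other 3 well above it (2.52 ± 0.67, adjusted p = 0.0393, and 2.86 ± 0.38 without replicate 36). Gpr17, a receptor of committed precursors and newly formed cells, was at 76.5 to 173 CPM in presort and 30 to 74.0 CPM in sorted nuclei. The groups did not overlap in CPM, a scale without the TMM factors, and Gpr17 did not pass (-0.75 ± 0.49, adjusted p = 0.415). Of all genes tested, 6% were higher and 19.7% lower in CPM in every sorted than in every presort library.

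Of 11 tested precursor genes, 4 fell and none rose, with a median of -2.29, and without replicate 36, 6 of 8 fell and Olig2 rose. Vcan, versican, was at 370, 269, 260 and 232 CPM in presort and 33.8, 28.1, 61.8 and 0.624 CPM in sorted nuclei (-2.85 ± 0.77, adjusted p = 0.0433). Tnr, tenascin R, fell from 77.6 ± 16.7 to 10.2 ± 7.17 CPM (-2.51 ± 0.64), Cspg5, a membrane proteoglycan, from 116 ± 46.5 to 12.2 ± 9.48 CPM (-2.88 ± 0.74), and Ptprz1, a phosphatase with proteoglycan chains, from 433 ± 147 to 67.8 ± 33.9 CPM (-2.02 ± 0.56). These genes were also found in sorted nuclei of the other lines. In sorted astrocyte line nuclei Ptprz1 was at 2010 to 2837, Cspg5 at 211 to 360 and Vcan at 347 to 640 CPM. Tnr was at 4.32 to 22.3 CPM there and at 58.1 to 89.8 CPM in sorted neuron line nuclei. Pdgfra, the growth factor receptor that defines precursors, was at 95.6, 115, 103 and 141 CPM in presort and 14.0, 6.20, 23.8 and 0 CPM in sorted nuclei. The groups did not overlap, but it did not pass in the 8 libraries (-3.01 ± 0.86, adjusted p = 0.0536) and fell by 2.61 ± 0.42 without replicate 36 (adjusted p = 0.000302). The summed level of the 14 precursor genes in the table was 1122 to 1693 CPM in presort and 119 to 426 CPM in sorted nuclei.

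Of 25 listed markers of astrocytes, 20 were tested, 8 fell, 12 did not pass and none rose, the median was -2.04, and all 15 that were tested without replicate 36 fell. Ntsr2, a neurotensin receptor of astrocytes, was at 66.9, 227, 142 and 132 CPM in presort and 17.4, 13.3, 11.5 and 0.624 CPM in sorted nuclei (-3.32 ± 0.73, adjusted p = 0.0185). Fgfr3, a growth factor receptor, fell from 273 ± 125 to 22 ± 15.4 CPM (-3.25 ± 0.65), and Slc1a3, a glutamate transporter, from 311 ± 98.4 to 57.5 ± 32.7 CPM (-2.04 ± 0.50). The summed level of the list was 4399 to 8620 CPM in presort and 1159 to 2701 CPM in sorted nuclei, and none of these 3 genes was at 0 in a sorted library.

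Neurons were represented by 3 lists. Of 25 pan-neuronal genes tested, 7 fell, 18 did not pass and none rose (median -1.56), and without replicate 36, 15 of 24 fell and Elavl3 rose. Scn2a, a sodium channel, was at 2247, 1432, 2187 and 2385 CPM in presort and 231, 126, 258 and 241 CPM in sorted nuclei (-2.64 ± 0.45, adjusted p = 0.00562). Snhg11, an abundant neuronal long noncoding RNA, was at 3918, 2125, 2493 and 1652 CPM in presort and 201, 420, 379 and 222 CPM in sorted nuclei (-2.53 ± 0.42, adjusted p = 0.00524). Syt1, a calcium sensor of synaptic vesicles, fell by 1.81 ± 0.41 and Rbfox3, the antigen known as NeuN, by 2.83 ± 0.65. The summed level of the 25 genes was 11200 to 15740 CPM in presort and 1390 to 4795 CPM in sorted nuclei. Among 14 glutamatergic markers tested, 2 fell, Neurod1 and Arpp21 (median -2.21), and without replicate 36, 9 of 12 fell (-2.10). Among 7 GABAergic markers tested, 1 fell (median -1.86), and without replicate 36, Reln and Adarb2 fell and Erbb4 rose among 5 (-0.43). The 1 that fell in the 8 libraries was Reln, the secreted protein reelin that granule cells also make, from 406 ± 109 to 23.5 ± 9.43 CPM (-3.53 ± 0.53). Slc17a7, the vesicular glutamate transporter of forebrain and granule neurons, turned on 1 library and is named after its values were seen. It was at 42.6, 30, 49.9 and 854 CPM in sorted replicates 10, 12, 34 and 36 and at 156 to 451 CPM in presort, which gave 1.07 ± 1.13 (adjusted p = 0.662) with replicate 36 and -2.29 ± 0.40 (adjusted p = 0.000537) without it.

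Cerebellar granule cells, the most numerous neurons of the brain, gave the lowest median of all gene lists: 9 of 11 tested genes fell, none rose, and the median was -3.74, and without replicate 36, 10 of 11 fell (-3.05). Fat2, a large cadherin of granule cells, was at 1919, 2198, 2739 and 5826 CPM in presort and 115, 106, 192 and 41.2 CPM in sorted nuclei (-4.39 ± 0.52, adjusted p = 0.00136). Cbln1, the synaptic organizer cerebellin 1, was at 634, 812, 831 and 1202 CPM in presort and 47.1, 38.6, 59.2 and 1.87 CPM in sorted nuclei (-4.22 ± 0.70, adjusted p = 0.00466). For both, presort replicate 35 was the highest and sorted replicate 36 the lowest library. Cbln3 fell by 3.96 ± 0.60 and Gabra6, a receptor subunit of granule cells, by 3.74 ± 0.57. The summed level was 4702 to 13486 CPM in presort and 381 to 758 CPM in sorted nuclei.

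Other cell types were thinly measured. No microglial gene of 8 tested and no endothelial gene of 10 tested passed, with medians of -1.47 and -2.26, and without replicate 36, 1 of 2 and 4 of 5 fell. The microglial sum was 210 to 696 CPM in presort and 111 to 189 CPM in sorted replicates 10, 12 and 34, and 12 of 16 microglial genes were at 0 in replicate 36. Without it 3 of 6 mural and fibroblast genes, 2 of 3 of ependyma and choroid plexus and 2 of 2 of blood fell. In the 8 libraries Acta2, smooth muscle actin, was the 1 of 11 mural and fibroblast genes that fell, from 36.3 ± 18.4 to 1.18 ± 1.13 CPM (-4.33 ± 0.87, adjusted p = 0.0125). Ttr, the transthyretin of choroid plexus, fell from 575 ± 207 to 73.6 ± 38.7 CPM, and Otx2, a factor of the same epithelium, from 73.9 ± 28.1 to 1.43 ± 1.70 CPM. Hbb-bs and Hbb-bt, near-identical beta globin genes of red cells whose reads may be split between them, both fell, Hbb-bs by 3.16 ± 0.68.

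Long noncoding RNAs of the nucleus went in both directions, with 1 of 8 tested higher and 4 lower, and 1 and 5 without replicate 36. Neat1, the scaffold RNA of paraspeckles, was at 389, 477, 486 and 355 CPM in presort and 2542, 3184, 2437 and 5750 CPM in sorted nuclei (3.80 ± 0.55, adjusted p = 0.00234, and 3.03 ± 0.27 without replicate 36). Meg3, an imprinted RNA of neurons, was at 6244, 4634, 6155 and 3960 CPM in presort and 435, 973, 699 and 714 CPM in sorted nuclei (-2.28 ± 0.42, adjusted p = 0.00811). Its CPM were lower after the sort in the neuron line too, at 5786 to 7086 in presort and 2292 to 3409 in sorted nuclei. In the astrocyte line they were 5592 to 9198 and 132 to 447. Rian and Mirg, which lie in the same imprinted cluster, fell by 2.90 ± 0.45 and 3.39 ± 0.70. Malat1, an abundant RNA of nuclear speckles, was at 24577 to 89405 CPM in presort and 58794 to 90314 CPM in sorted nuclei and did not pass (1.14 ± 0.42, adjusted p = 0.121).

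Very long genes that are often read as synaptic were likewise divided, 3 of 26 higher and 5 lower with a median of -0.76, and 6 of 23 higher and 10 lower without replicate 36 (-0.74). Ptprd, a receptor phosphatase, was at 2254, 1928, 2325 and 2007 CPM in presort and 12626, 11116, 12268 and 12699 CPM in sorted nuclei, with little spread in either group (3.13 ± 0.37, adjusted p = 0.00136). Pcdh9, a protocadherin, rose from 754 ± 138 to 2730 ± 340 CPM (2.47 ± 0.39), and Ctnna3, a catenin, by 3.08 ± 0.77. Lsamp, a limbic adhesion protein, fell from 469 ± 44.5 to 76.0 ± 37.0 CPM (-2.17 ± 0.40), and Nrxn3, Nrg3 and Cntnap2 fell by 3.02, 2.76 and 2.19. Csmd1, named after its values were seen, repeated the pattern of Slc17a7: 16.7, 16.2, 26.4 and 451 CPM in sorted replicates 10, 12, 34 and 36 against 109 to 239 CPM in presort. Its change was 0.75 ± 1.13 (adjusted p = 0.779) with replicate 36 and -2.75 ± 0.36 (adjusted p = 6.87e-05) without it.

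Splicing factors and speckle genes gave 3 rises and no falls among 30 tested (median 0.56). Without replicate 36, 8 of 29 rose (median 0.42) and 1 fell, Srrm4, a splicing factor of neurons, by 2.36. Among all genes tested, 5.12% rose in the 8 libraries, and 16.7% rose and 16.8% fell without replicate 36. Qk, the RNA binding protein quaking that shapes myelin transcripts, was at 335, 246, 211 and 164 CPM in presort and 1293, 1362, 1609 and 615 CPM in sorted nuclei (2.82 ± 0.38, adjusted p = 0.00171). Ddx17, an RNA helicase, rose from 679 ± 64.9 to 1085 ± 186 CPM (1.22 ± 0.32), and Clk4, a kinase of splicing factors, by 2.10 ± 0.57 with groups that overlapped. None of 62 ribosomal protein genes, of 49 nuclear respiratory chain genes or of 9 mitochondrially encoded genes passed, with medians of -0.67, -0.46 and -0.58. Without replicate 36, 1 of 26 ribosomal protein genes (Rpl10), 1 of 20 respiratory chain genes (Atp5g1) and 0 of 8 mitochondrially encoded genes were lower. Replicate 36 listed 0 counts for 39 of 77 ribosomal protein genes and 43 of 82 respiratory chain genes. In the 2 males of each group alone, 6 of 9 mitochondrially encoded genes were lower, as were 1070 of all 10679 genes tested. Sorted replicate 34, a female, had the highest mitochondrial share of the sorted libraries. The difference between the sexes was not tested. Of 7 immediate early genes tested, which respond to cell activity, 1 fell: Btg2, by 2.60 ± 0.71. Without replicate 36, Btg2 and Egr1 fell among 5.

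The genes with the largest rises by the naming rule were partly set by replicate 36. Tesk2, a testis-specific kinase family member, was at 6.38 to 27.3 CPM in presort and 71.6, 56.7, 54.4 and 1810 CPM in sorted nuclei, so its rise of 6.42 ± 1.57 (adjusted p = 0.028) became 2.61 ± 0.47 without that library. Sgsh, a lysosomal sulfatase, showed the same pattern, with 1388 CPM in replicate 36 against 41.7 to 60.0 CPM in the others (5.97 ± 1.62, and 2.22 ± 0.61 without it). Nr1h2, a sterol-sensing nuclear receptor, was at 2415 CPM in replicate 36 and 44.0 to 102 CPM in the other sorted libraries, which overlapped the presort range of 15.9 to 65.4 CPM (5.29 ± 1.48, and 1.34 ± 0.46 without it). Mboat1, Smtn, Dusp15 and Arrdc2 also peaked in replicate 36 and rose by 3.37, 3.16, 3.75 and 3.94 without it. The other 3 did not depend on it. Insc, an adaptor for the spindle, had 2 counts over the presort group and was at 77.4, 85.3, 58.5 and 73.6 CPM in sorted nuclei (5.79 ± 0.99, adjusted p = 0.00581). Sec14l5, a lipid transfer family member, had 3 presort counts and 77.7, 116, 37.3 and 132 CPM (5.65 ± 0.92). Trpv3, a cation channel, was at 3.85 to 15.3 CPM in presort and 130 to 270 CPM in sorted nuclei (5.42 ± 0.71, adjusted p = 0.0017, and 4.97 ± 0.49 without replicate 36).

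**Figure D4:**
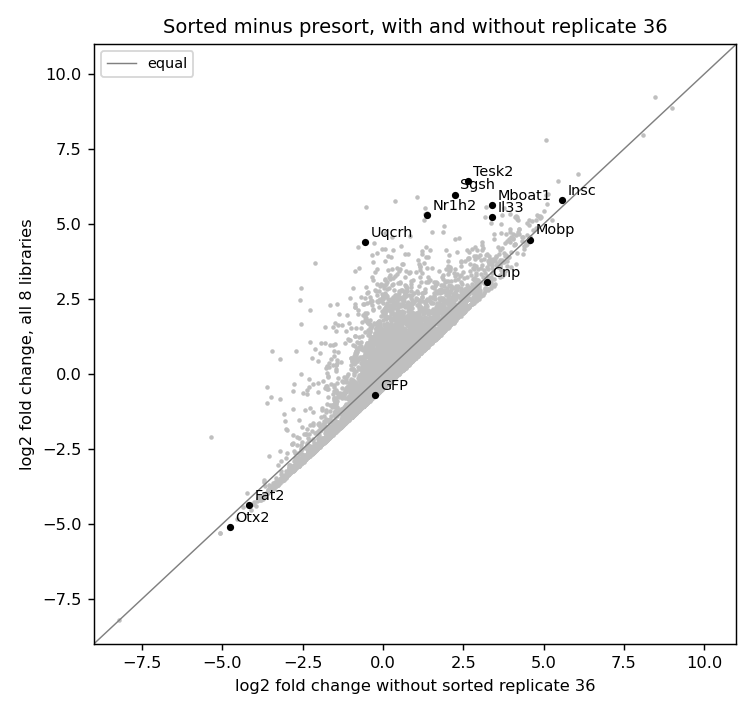
Log2 fold change of sorted minus presort nuclei with all 8 libraries (vertical axis) against the value without sorted replicate 36 on the same 9520 genes (horizontal axis), with a line at equal values. Cnp, Fat2 and Otx2 sit near the line, while Tesk2, Sgsh, Nr1h2 and Uqcrh lie far above it.

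The 10 largest falls held under both sets of libraries, since the rule required it, and were Otx2, Grin2c, Cnpy1, Grm4, Fat2, Psg16, Cbln1, Ptchd1, Gabrd and Cntn6. Otx2 was at 31.9, 84.7, 88.1 and 91.0 CPM in presort and 2.39, 0, 3.35 and 0 CPM in sorted nuclei (-5.11 ± 0.99, adjusted p = 0.0103). Grin2c, a glutamate receptor subunit, was at 76.5, 158, 188 and 328 CPM in presort and 11.6, 4.77, 8.20 and 0 CPM in sorted nuclei (-4.52 ± 0.86, adjusted p = 0.0098). It was not particular to neurons, at 203 to 487 CPM in sorted astrocyte line nuclei and 87.3 to 385 CPM in sorted neuron line nuclei. Cnpy1, a canopy family gene, was at 182, 219, 326 and 282 CPM in presort and 6.14, 9.53, 13.0 and 4.37 CPM in sorted nuclei (-4.43 ± 0.52, adjusted p = 0.00136). Grm4, Gabrd and Cntn6, which encode a glutamate receptor, a GABA receptor subunit and a contactin, fell by 4.39, 4.16 and 4.13. Fat2, Cbln1 and Grin2c are also on the granule cell list.

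The sort was then compared with that of the other lines in 1 fit of 24 nuclear libraries, with the difference itself under test. Of 12171 genes, 853 had a higher sort effect than in the astrocyte line (7.01%) and 780 a lower one (6.41%), and 1072 (8.81%) and 879 (7.22%) did against the neuron line. Without replicate 36, with 8285 genes tested, the counts were 860 and 967 against the astrocyte line and 1180 and 1079 against the neuron line. Structural myelin genes had a higher effect in 15 of 17 cases against astrocytes (median difference 5.68) and in 16 of 17 against neurons (6.98). Mobp changed by 4.55 in the oligodendrocyte line, -2.60 in the astrocyte line and -3.44 in the neuron line, so the differences were 7.15 ± 0.52 (adjusted p = 2.87e-10) and 7.99 ± 0.52 (adjusted p = 2.27e-11). For Sox10 they were 8.49 ± 1.09 and 7.77 ± 1.05. Enpp2, the enzyme autotaxin, rose in the astrocyte line as well (1.79), and its difference did not pass there (1.28 ± 0.48, adjusted p = 0.0769) but did against neurons (5.03 ± 0.50).

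Other genes gave differing patterns across the 3 lines. Neat1 changed by 3.84, 1.77 and -4.48 in the oligodendrocyte, astrocyte and neuron lines, with differences of 2.08 ± 0.54 (adjusted p = 0.00812) and 8.32 ± 0.61 (adjusted p = 1.88e-10). Qk changed by 2.88, 1.96 and -1.25, and the difference from astrocytes did not pass (0.92 ± 0.38, adjusted p = 0.111). Grm3 changed by 2.0, 2.42 and -0.06, again with no difference past the threshold from astrocytes (-0.42 ± 0.41, adjusted p = 0.619). St18 changed by 1.94, -3.96 and 0.91, and here it was the difference from neurons that did not pass (1.03 ± 0.44, adjusted p = 0.119). Ptprd changed by 3.18, -0.92 and 0.34 and differed from both, by 4.11 ± 0.34 and 2.84 ± 0.34. Of 13 genes of mature oligodendrocyte subtypes, 3 had a higher sort effect than in the astrocyte line (median difference 0.21). In the astrocyte line itself 4 of the 13 rose and 2 fell. Against the neuron line 8 of the 13 had a higher effect (3.19). Gpr17, which did not pass within the line, changed by -0.68 against -4.59 and -4.39 in the others, differences of 3.91 ± 0.62 (adjusted p = 3.63e-05) and 3.71 ± 0.59 (adjusted p = 3.96e-05).

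Of the 25 astrocyte markers, 24 had a lower sort effect than in the astrocyte line (median difference -5.18), and 2 were lower and 2 higher than in the neuron line (0.35). Fgfr3, for example, changed by -3.17, 3.88 and -3.40 in the oligodendrocyte, astrocyte and neuron lines. Of 25 pan-neuronal markers, 12 were lower than in the neuron line and none than in the astrocyte line, where 3 were higher. Of 13 precursor genes, 5 had a lower and 1 a higher effect than in the astrocyte line (median difference -1.24). Against the neuron line 2 were lower and 2 higher (0.31). Of 13 granule cell genes tested in this fit, 10 had a lower effect than in the neuron line and 3 a lower one than in the astrocyte line, where 8 of the 13 fell in their own right. The 3 were Grin2c, Pax6 and Zic4, whose values in the astrocyte line were above 0 and did not pass, and Grin2c changed by 0.99 in the astrocyte line, a difference of -5.39 ± 0.83 (adjusted p = 2.5e-05). Fat2 changed by -4.33, -4.38 and 0.98, a difference of 0.05 ± 0.51 from astrocytes (adjusted p = 0.98) and of -5.32 ± 0.54 from neurons (adjusted p = 3.87e-08). Ttr changed by -2.42, 3.04 and -3.55.

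**Figure D5:**
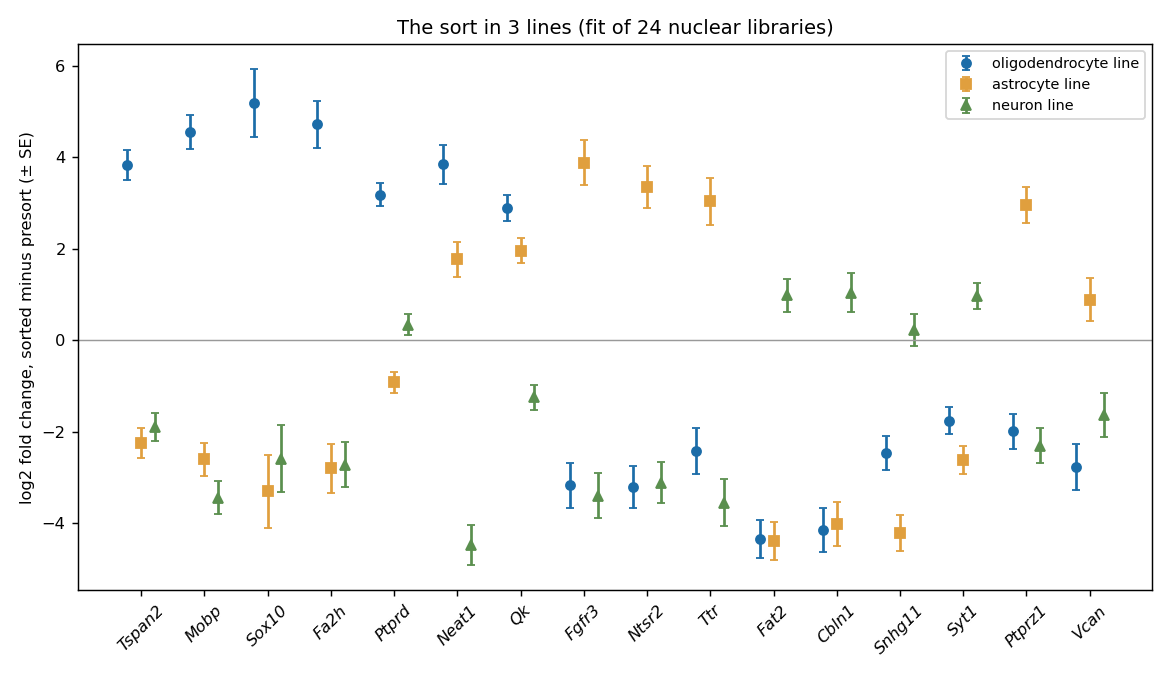
Log2 fold change of sorted minus presort nuclei with its SE for 16 genes in the oligodendrocyte line (blue circles), astrocyte line (orange squares) and neuron line (green triangles), from 1 fit of 24 libraries. Tspan2, Mobp, Sox10 and Fa2h lie above 0 in the oligodendrocyte line alone, Neat1 and Qk in both glial lines, and Fat2, Cbln1, Snhg11 and Syt1 below 0 in both glial lines.

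Among the largest differences named by rule, Tex52, a testis-expressed gene, had 0 presort counts and 55.6, 66.3, 24.2 and 21.8 CPM in sorted nuclei, at least 14.8-fold higher against a floor of 3 counts over the group (at least 17.1-fold without replicate 36). Slc7a15, an amino acid transporter family member, was at 12.5 to 33.8 CPM and at least 7.89-fold higher, and Fah, the last enzyme of tyrosine breakdown, at 19.4 to 78.0 CPM and at least 15.6-fold higher, both from 0 presort counts. All 3 passed against both other lines, with adjusted p of 3.67e-06 and 2.42e-06 for Tex52. Tpm2, a muscle tropomyosin, had 38 presort counts and 0 in all sorted libraries, at least 116-fold lower, and passed with a lower effect than in the astrocyte line (adjusted p = 0.0101) and the neuron line (adjusted p = 0.0101). Insc and Sec14l5 again showed higher effects, by 9.39 ± 1.31 and 8.0 ± 1.33 against astrocytes and by 7.20 ± 2.10 and 11.01 ± 1.5 against neurons. Ccdc190, Nat8f3, Gcnt4, Hsd11b1 and Fgfr3 had the largest lower effects against the astrocyte line, from -7.89 ± 0.87 for Ccdc190 to -7.05 ± 0.70 for Fgfr3. Adamts18, Tpm2, Tbata, Ptchd1 and Epha3 had the largest against the neuron line, from -6.35 ± 0.97 for Adamts18 to -5.47 ± 0.73 for Epha3.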

How the data were processed

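RNA of sorted and presort nuclei was sequenced after Trizol extraction, DNase treatment, a MinElute column and NuGEN Ovation RNA-seq V2 amplification, per the labels' protocols. That kit keeps no strand, so overlapping genes cannot be told apart, and without molecular identifiers the floors cover counting error only. The standard errors also hold the spread between replicate libraries. The authors deposited raw counts, 1 whole number for each gene in each library, and Trimmomatic, Bowtie2, STAR, bedtools and edgeR are named in the submitters' processing notes with no version. Neither genome build nor counting rule is given in the sources used here.

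Symbols came from GENCODE M21 (26495 of 27501 identifiers found). Counts were tested with edgeR 4.0.16 in R 4.3.3 (quasi-likelihood F test, TMM factors, filterByExpr by group with a minimum count of 10, two-sided, Benjamini-Hochberg adjustment over all genes tested, threshold 0.05). The main fit held the 8 libraries of the line, and the differences between lines were contrasts in a fit of 24 nuclear libraries whose 6 groups share one estimate of the spread. Standard errors were derived from the fold change and the F statistic. The script was tested on simulated counts. Alternatives used RLE factors, DESeq2 1.42.0, limma 3.58.1 voom with quality weights, sex as a covariate, each sex alone, no filter, no mitochondrial genes, thinning to 219714 counts, a fit of 24 libraries, 16 libraries for the contrasts, and each library left out in turn. The fit without replicate 36 on unchanged genes was chosen after seeing the data.

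The members and the 27 gene lists were chosen with earlier results of these data known. Named genes are the transgene, its parts and the 3 drivers; the 10 largest rises and falls that passed with and without replicate 36 with a mean of at least 20 CPM, pseudogenes, unnamed genes and read-sharing families left out; up to 4 members of each list with the smallest adjusted p (8 for the structural, lipid, factor, node and cytoskeleton lists) and up to 2 against its direction; and the 5 largest differences each way per line. Replicates are separate mice, per the design text, which also takes presort RNA from each mouse, but the labels link no sorted to a presort library. Replicates were no copies of each other (chi-square of at least 3.59 per degree of freedom). The 2 cytoplasm libraries were not used here, and some listed genes are counted but not reported here by name. Males have replicate numbers up to 12 and females from 25, so sex and the block of numbers cannot be told apart.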

Additional observations from a re-analysis of the deposited data

Results flagged for a closer look

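With 58 groups of 4 libraries examined, chance flags about 1 in 20. Sorted replicate 36 stood apart from its group in 10 measures, which are not independent of each other. It was lowest in genes detected, at 7674, in genes at the common depth, at 5710, and in Rpl10a, at 0 CPM. It was highest for Tesk2 at 1810 CPM, Sgsh at 1388 CPM, Mboat1 at 789 CPM, Smtn at 694 CPM, Dusp15 at 852 CPM, Arrdc2 at 182 CPM and Nr1h2 at 2415 CPM. Those genes were examined as the largest rises, which their values in replicate 36 helped to set. The chance rate above therefore does not apply to them. Sorted replicate 34 was apart for its mitochondrial share, at 0.339%.

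In presort nuclei, replicate 9 was lowest for Otx2 at 31.9 CPM and for Psg16 at 25.5 CPM, and highest for Arrdc2 at 12.8 CPM. Replicate 33 was highest for Insc at 7.66 CPM and for Cntn6 at 264 CPM. Replicate 11 was highest for Rpl10a at 88.5 CPM and replicate 35 for Grm4 at 1142 CPM.

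The sort effect differed between lines, by the test of the difference itself in edgeR, for 853 genes that were higher and 780 that were lower than in the astrocyte line, and for 1072 higher and 879 lower than in the neuron line.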

How the results depend on the processing

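Presort depth limits low genes, since 3 counts are worth 9.56 to 13.7 CPM there, and the number of calls moved with replicate 36 and with each presort library. The count of genes higher in sorted nuclei, 487 in the 8 libraries, was 1428 in limma-voom with quality weights (weight of replicate 36, 0.0332), 1513 in the fit of 24 libraries, 839 with no filter, 1151 without replicate 36 on unchanged genes, 1081 in males alone and 0 in females alone. The count of genes lower, 308, was 1848, 1552, 377, 1221, 1070 and 0 in the same fits and 1128 in DESeq2. Genes tested were 12171 in the fit of 24 libraries, 18841 with no filter, 10679 in males alone and 9655 in females alone. In females alone edgeR had 694 genes at an unadjusted p under 0.05. Replicate 36 is among the 2 sorted libraries of that fit, so the counts in males and in females alone do not compare the sexes. Leaving out each library in turn gave 212 to 1031 genes higher and 55 to 1038 lower. The counts were 226, 226, 212 and 229 higher and 90, 76, 55 and 56 lower without presort replicates 9, 11, 33 and 35. They were 139 and 141 lower without sorted replicates 10 and 12. Applying the filter afresh left 11484 to 11634 genes tested without a presort library, and 6058 to 6174 without a sorted one. These counts therefore mix the change of genes tested with the loss of the library. Thinning gave 491 and 451 of 4495 genes. Of the differences between lines, the count lower than in the neuron line was 559 with 16 libraries, and the other 3 counts stayed within 1.5 times under every alternative run.

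Directions reversed for Aldh1l1 (0.0047) and Arc (-0.71) in females alone, Dusp1 (0.11) in males alone, Sdhc (-0.0173 without replicate 36, within -0.0173 to 2.70 as each library was left out), Rpl7 (-0.61 in limma-voom, -0.55 in males, -0.46 without replicate 36 on unchanged genes) and Uqcrh (-0.26, -0.66 and -0.56 in those fits). For Sdhc, Rpl7 and Uqcrh each of these fits left out replicate 36 or gave it a low weight (0.0332). Their levels in sorted nuclei ranged from 31.7 to 413, from 1.43 to 225 and from 11.9 to 957 CPM. The cause was not tested. The median of the cholesterol list was -0.09 in females alone. No paired analysis was possible because sorted and presort libraries share no replicate number and the labels link none of them to a mouse: consecutive numbers, such as presort 9 and sorted 10, are not said to share one.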
